A study of Mus musculus with 30 samples.

Results

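The genes described here encode 6 G protein-coupled receptors through which islet cells sense gut hormones, glucagon and fatty acids. They were named by symbol, with earlier results of these data known: Glp1r, Gipr, Gcgr, Ffar1, Ffar2 and Ffar4. These are 6 of the 17775 genes in the deposited table, and all 6 were present. The table holds bulk RNA-seq values of mouse islet cells isolated by fluorescence-activated sorting, in 30 libraries of 5 groups. Mature alpha-cells came from Glucagon-Venus mice 3 months old (alpha, 8 libraries) and mature beta-cells from Insulin-mCherry mice of the same age (beta, 7 libraries). Glucagon-Venus mice that also carried RIP-DTR received diphtheria toxin (DT) at 2 months of age, and their alpha-cells were collected 30 days after it (alpha DT, 4 libraries). RIP-DTR places the toxin receptor under a rat insulin promoter, so that the toxin kills beta-cells. Alpha-cells made to express the beta-cell factor PDX1 came from mice with Glucagon-rtTA, TetO-Cre, R26YFP and CAG-Pdx1 at 3 months of age (alpha Pdx1, 5 libraries). The same 4 alleles together with RIP-DTR, collected 30 days after the toxin, gave the last group (alpha Pdx1 DT, 6 libraries), whose mice also received the toxin at 2 months of age. The 2 groups with Pdx1 thus also carried another reporter than alpha and alpha DT, and the 2 DT groups differed from the others by RIP-DTR as well as by the toxin. The parts of these differences cannot be told apart. The rtTA and Cre system needs doxycycline, and its schedule was not given in the sources used here.

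Glp1r and Gipr are the receptors of the incretins GLP-1 and GIP, gut hormones that raise insulin secretion after a meal. Gcgr is the receptor of glucagon. All of them belong to the class B receptors and couple mainly to Gs, which raises cyclic AMP. Ffar1 (GPR40) binds medium- and long-chain fatty acids, couples mainly to Gq and is known for strengthening glucose-stimulated insulin secretion. Ffar4 (GPR120) also binds long-chain fatty acids and is known in mouse islets from somatostatin-producing delta-cells and from alpha-cells. Ffar2 (GPR43) binds short-chain fatty acids such as acetate and couples to Gi and Gq.

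Promoters are shown for 4 receptor genes whose levels set the groups apart most clearly below. Glp1r and Gcgr were high in beta, Ffar1 correlated with Pdx1 over the 30 libraries, and Ffar4 was low in beta. The sequences are from RefSeq (assembly GRCm38.p6), 300 bases each, with 250 before and 50 after the annotated start, written along the gene's own strand. RefSeq promoters matched 5 of the 6 genes, Gipr being the exception. Capitals mark TAAT, the core bound by homeodomain factors such as PDX1, and TGCTGA, the core of the MAF recognition element, each searched on both strands (as ATTA and TCAGCA on the other strand).
Glp1r, chr17:30901617-30901916, plus strand: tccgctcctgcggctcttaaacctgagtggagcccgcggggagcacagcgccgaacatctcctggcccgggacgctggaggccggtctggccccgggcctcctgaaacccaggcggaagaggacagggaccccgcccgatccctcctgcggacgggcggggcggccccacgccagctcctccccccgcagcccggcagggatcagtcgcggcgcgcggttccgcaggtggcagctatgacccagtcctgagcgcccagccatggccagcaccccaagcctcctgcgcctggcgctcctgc
Gcgr, chr11:120530477-120530776, plus strand: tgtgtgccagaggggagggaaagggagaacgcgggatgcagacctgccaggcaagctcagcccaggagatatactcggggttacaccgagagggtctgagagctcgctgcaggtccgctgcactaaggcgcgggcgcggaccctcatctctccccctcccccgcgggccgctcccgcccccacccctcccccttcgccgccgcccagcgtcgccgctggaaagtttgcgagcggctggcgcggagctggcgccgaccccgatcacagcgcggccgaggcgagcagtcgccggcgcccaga
Ffar1, chr7:30861421-30861720, minus strand: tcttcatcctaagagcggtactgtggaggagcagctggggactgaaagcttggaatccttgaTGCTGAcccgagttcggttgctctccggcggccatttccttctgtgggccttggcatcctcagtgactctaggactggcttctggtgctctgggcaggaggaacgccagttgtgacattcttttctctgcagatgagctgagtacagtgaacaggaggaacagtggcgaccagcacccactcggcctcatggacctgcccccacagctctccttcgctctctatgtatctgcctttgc
Ffar4, chr19:38096829-38097128, plus strand: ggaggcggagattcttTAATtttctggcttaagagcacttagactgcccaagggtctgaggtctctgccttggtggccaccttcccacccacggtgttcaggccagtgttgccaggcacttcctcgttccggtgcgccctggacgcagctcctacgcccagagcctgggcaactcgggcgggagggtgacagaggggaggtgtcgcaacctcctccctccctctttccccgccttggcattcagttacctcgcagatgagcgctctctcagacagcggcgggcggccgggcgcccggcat

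The Glp1r and Gcgr windows held neither core, the Ffar1 window held 1 TGCTGA and the Ffar4 window held 1 TAAT. No base belonged to both cores. Of 32851 mouse promoters of this length, 58.0% held TAAT and 19.5% held TGCTGA on either strand, so these letters are common and their presence here is a description only. GC content was 73.7% for Glp1r, 71.7% for Gcgr, 56.3% for Ffar1 and 63.7% for Ffar4, against a median of 52.7% over all promoters. The protein-coding genes lie on GRCm38 (GENCODE) at chr17:30901817-30940791 (Glp1r), chr7:19156061-19166127 (Gipr), chr11:120530699-120538986 (Gcgr), chr7:30857390-30861564 (Ffar1), chr7:30818348-30823775 (Ffar2) and chr19:38097071-38114263 (Ffar4).

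The deposited values were read as log2 after quantile normalization from the values themselves, since no source used here states the scale: all libraries had nearly the same quartiles (5.95, 8.55 and 10.37) and the same highest value (22.57), and they differed only toward the bottom of the scale. Whether they were scaled by gene length is not stated in the sources used here, so levels are compared between groups for 1 gene and never between genes. Read depth is unknown, and the lowest value of a library lay between 0.76 and 2.35. Differences are given on the log2 scale ± standard error with adjusted p from limma over the 16633 genes that passed a filter on low values. All 6 receptors passed. Gcgr passed through beta, since outside beta 2 libraries reached the filter value of 5. The p-value given for its difference between beta and alpha is therefore that of a fit of all 17775 genes without the filter. Counts of receptors past the threshold use the filtered fit unless stated. Beta against alpha DT, alpha Pdx1 and alpha Pdx1 DT passed for Gcgr in all 8 other settings, no filter among them. The highest limma adjusted p there was 1.83e-05. The labels do not say that libraries came from separate animals, so a p-value measures the spread between these libraries, which may be technical. In bulk samples, fewer cells of a type and less RNA per cell cannot be told apart. Libraries are numbered in the order of their records. 5 libraries stood apart from their labels in Pdx1 or glucagon (Gcg) levels. Pdx1 was 11.23 in alpha 8, near the Pdx1 groups, 8.61 in alpha Pdx1 5 and 5.51 in alpha Pdx1 DT 5, near alpha, and Gcg was the most abundant gene (22.57) in beta 1 and beta 5. Alpha Pdx1 DT 5 and alpha 4 correlated at r = 0.993 over genes, the highest of 435 pairs of libraries (next 0.986), and differed by at most 0.19 in each of the 6 receptors. Results are therefore also given without these 5 libraries. That choice used Pdx1 and Gcg, so such values describe the remaining libraries and are no new test. The same holds for fits that leave out 1 of these 5 libraries alone.

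**Figure D1:**
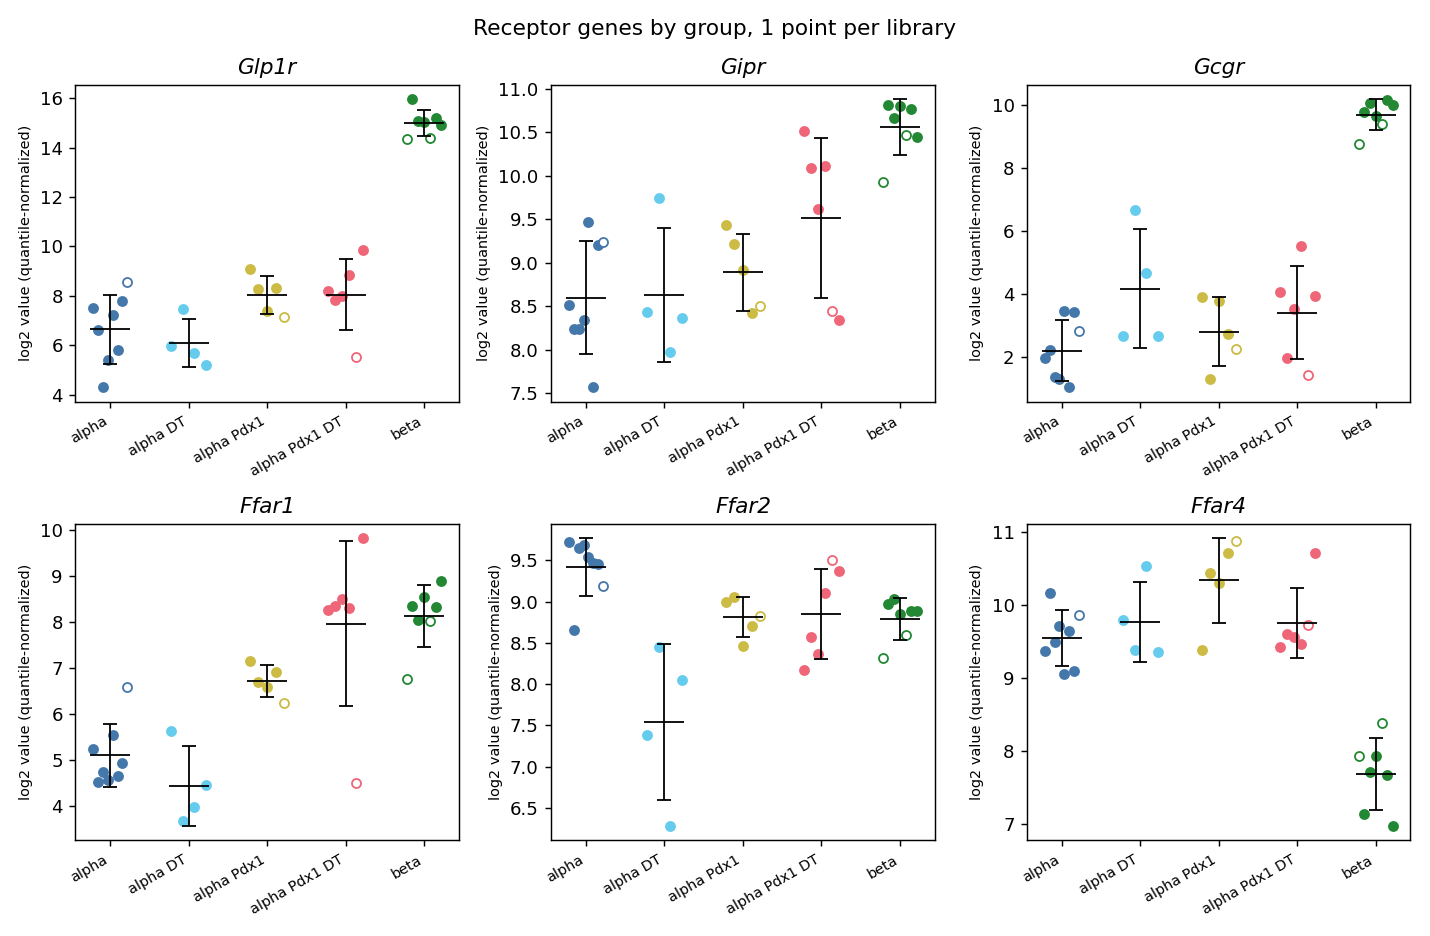
Log2 values (y axis, quantile-normalized) of the 6 receptor genes in each of the 5 groups, with 1 point per library, the mean as a long bar and the SD as the error bar. Open circles are the 5 libraries that stood apart from their labels. Glp1r and Gcgr in beta lay above every library of the other 4 groups and Ffar4 in beta lay below all of them, while Ffar2 was lowest in alpha DT.

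Beta-cells differed from alpha-cells in all 6 receptors, with the call for Ffar2 lost in 12 of 15 fits that left out 1 library and without the 5 libraries set apart. Glp1r, Gipr, Gcgr and Ffar1 were higher in beta (4 of 6, where 16.9% of all genes tested were higher), and Ffar2 and Ffar4 were lower (2 of 6, where 17.6% of all genes were lower). The count was also 6 of 6 without the filter. The median difference over the 6 genes was 2.49. The medians over all genes tested were between -0.06 and 0.08 in the 11 comparisons. For 5 of the 6 genes the ranges of the 2 groups did not overlap, Ffar2 being the exception. The exact two-sided permutation p of Glp1r, Gipr, Ffar1 and Ffar4 was 0.000311 each, the smallest that 7 libraries against 8 allow.

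The incretin receptor Glp1r had values of 14.36, 15.96, 15.09, 15.05, 14.40, 15.21 and 14.90 in beta 1 to 7. In alpha it ran from 4.30 through a median of 6.92 to 8.55, the highest value being that of alpha 8. The lowest beta library thus lay far above the highest alpha library. The difference was 8.35 ± 0.55 (adjusted p = 1.65e-12). Without the 5 libraries set apart it was 8.86.

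Glp1r in the engineered alpha-cells stayed far below beta. It was 9.10, 8.26, 7.39, 8.32 and 7.16 in alpha Pdx1 1 to 5. In alpha Pdx1 DT 1 to 6 it was 8.21, 7.84, 8.0, 8.86, 5.54 and 9.86, with library 5 well below the other 5. Alpha DT had 5.98, 7.46, 5.70 and 5.21, all within the range of alpha. The order of the means was beta (15.00 ± 0.54, SD, n = 7), alpha Pdx1 DT (8.05 ± 1.43, n = 6), alpha Pdx1 (8.04 ± 0.78, n = 5), alpha (6.65 ± 1.40, n = 8) and alpha DT (6.09 ± 0.97, n = 4). Only the step from beta to the next group passed the test among these neighbours. Against alpha, Glp1r differed by 1.39 ± 0.60 in alpha Pdx1 (adjusted p = 0.21) and by 1.40 ± 0.57 in alpha Pdx1 DT (adjusted p = 0.114), and neither passed. Without the 5 libraries set apart the differences were 1.88 (limma adjusted p = 0.025) and 2.17 (limma adjusted p = 0.00252), and leaving out alpha Pdx1 DT 5 alone gave 1.90 (limma adjusted p = 0.0117) for the second. Beta exceeded alpha Pdx1 by 6.95 ± 0.62 and alpha Pdx1 DT by 6.94 ± 0.59.

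The second incretin receptor, Gipr, showed a much smaller range. It was 9.93, 10.82, 10.67, 10.80, 10.47, 10.77 and 10.45 in beta 1 to 7, against 7.57 to 9.47 with a median of 8.43 in alpha, so the 2 groups did not overlap. The difference was 1.95 ± 0.31 (limma adjusted p = 6.54e-06). Alpha DT had 8.43, 9.74, 7.97 and 8.36, and alpha Pdx1 had 9.43, 9.22, 8.92, 8.42 and 8.50, both overlapping alpha. In alpha Pdx1 DT 1 to 6 Gipr was 10.52, 10.09, 9.62, 10.11, 8.44 and 8.34. 4 of these libraries lay above every alpha library and 2 lay among them. The group means ran from beta (10.56 ± 0.32, SD) through alpha Pdx1 DT (9.52 ± 0.92), alpha Pdx1 (8.89 ± 0.44) and alpha DT (8.63 ± 0.77) to alpha (8.60 ± 0.65), and among neighbours in this order beta and alpha Pdx1 DT differed (1.04 ± 0.33, limma adjusted p = 0.0192). That call was lost without alpha Pdx1 DT 5 (0.82, limma adjusted p = 0.0647) or alpha Pdx1 DT 6 (0.80, limma adjusted p = 0.0729). Alpha Pdx1 DT exceeded alpha by 0.92 ± 0.32, which did not pass (limma adjusted p = 0.0704). It passed without alpha Pdx1 DT 5 (1.13, limma adjusted p = 0.0129), without alpha 5 (1.04, limma adjusted p = 0.0359) and without the 5 libraries set apart (1.22, limma adjusted p = 0.01).

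The glucagon receptor gene Gcgr was at the bottom of the scale in alpha-cells. In alpha 1 to 8 it was 1.95, 2.21, 1.36, 1.28, 3.46, 1.03, 3.41 and 2.81, values only 2 to 18 distinct steps above the lowest value of each library. In beta it ran from 8.75 (beta 1) through a median of 9.78 to 10.16. Every beta library thus lay above every alpha library. The group means differed by 7.50 ± 0.59 (limma adjusted p = 6.94e-12 without the filter), a size that rests on alpha values close to the lowest the table can hold.

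Outside beta, Gcgr was highest on average in alpha DT (4.16 ± 1.90, SD), followed by alpha Pdx1 DT (3.40 ± 1.49), alpha Pdx1 (2.79 ± 1.09) and alpha (2.19 ± 0.96), and no pair of these 4 groups passed the test. The alpha DT mean was carried by library 2 (6.65, 117 steps above that library's lowest value) and library 3 (4.65), while libraries 1 and 4 had 2.67 each. The lowest value of the library was 1.075, 0.989, 1.995 and 0.989 in alpha DT 1 to 4, and 0.758 to 1.027 in alpha. It was 2.348 in alpha Pdx1 DT 6. The part of these lowest values in the order of the means was not tested. Alpha DT exceeded alpha by 1.97 ± 0.70 (limma adjusted p = 0.106). The difference passed without alpha DT 4 (2.47, limma adjusted p = 0.0447) and shrank without alpha DT 2 (1.14, limma adjusted p = 0.422). These fits kept Gcgr through its beta values. In 8 other settings, no filter among them, the difference did not pass (limma adjusted p 0.0801 to 0.276). The summed level of the delta-cell markers was 15.22 to 17.79 in alpha DT and 14.53 to 16.14 in alpha. None of the 4 marker genes passed the test, where 1.57% of all genes were higher and 1.70% lower. Over the 23 libraries outside beta, Gcgr correlated with the delta-cell hormone Sst at r = 0.63, and over all 30 at r = -0.20. Both are descriptions of libraries that share groups, and the part of delta-cells in the Gcgr values was not tested.

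Among the fatty acid receptors, Ffar1 was low in alpha and alpha DT, intermediate in alpha Pdx1 and at the level of beta in most of alpha Pdx1 DT. In alpha 1 to 8 it was 5.24, 4.52, 4.75, 4.57, 5.54, 4.65, 4.94 and 6.58. The high value belonged to alpha 8, the library with Pdx1 at 11.23. Alpha DT had 5.64, 3.68, 3.97 and 4.46. In alpha Pdx1 1 to 5 it was 7.15, 6.70, 6.58, 6.92 and 6.23, so 4 of 5 libraries were above every alpha library. In alpha Pdx1 DT 1 to 6 it was 8.26, 8.35, 8.50, 8.31, 4.51 and 9.82, where library 5, the one with Pdx1 at 5.51, stood at the level of alpha. Beta 1 to 7 had 6.75, 8.35, 8.04, 8.55, 8.03, 8.32 and 8.88. The 5 other alpha Pdx1 DT libraries thus lay within or above the range of beta.

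Ffar1 was the only one of the 6 receptors to pass in alpha Pdx1 DT against alpha (1 of 6 higher and 0 lower, where 4.06% of all genes were higher and 3.75% lower). The difference was 2.86 ± 0.51 (limma adjusted p = 0.00459), and 3.76 (limma adjusted p = 3.83e-09) without the 5 libraries set apart. It did not pass when Rn18s-rs5, a ribosomal RNA gene whose group means were 19.29 in alpha and 20.99 in alpha Pdx1 DT, was a covariate (2.07, limma adjusted p = 0.156), nor when the 2 groups were fitted alone (limma adjusted p = 0.0778), where no gene passed. In alpha Pdx1 against alpha, 0 of 6 receptors passed in limma (2.36% of all genes were higher and 1.98% lower), 4 of 6 had an unadjusted p under 0.05, and 3 of 6 did by the exact permutation test. Ffar1 differed there by 1.62 ± 0.53 (limma adjusted p = 0.0776), with an exact permutation p of 0.00311. It passed without alpha 8 (1.83, limma adjusted p = 0.0359) and without the 5 libraries set apart (1.95, limma adjusted p = 0.000705). Alpha 8 was set apart by its Pdx1 level, and Ffar1 correlated with Pdx1. Ffar1 values given without set-apart libraries are therefore no new test.

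Between beta and alpha Pdx1 DT, Ffar1 differed by 0.17 (limma adjusted p = 0.849). The 95% interval ran from -0.88 to 1.23, so a difference of either sign within it was not excluded. Without the 5 libraries set apart the difference was -0.22. In the same comparison Glp1r, Gipr and Gcgr were higher in beta and Ffar4 was lower (3 of 6 and 1 of 6, where 13.4% of all genes were higher and 12.9% lower). Against alpha Pdx1, beta was higher in Glp1r, Gipr, Gcgr and Ffar1 and lower in Ffar4 (4 of 6 and 1 of 6, where 16.2% and 16.7% of all genes were higher and lower). Ffar1 there differed by 1.42 ± 0.55 (limma adjusted p = 0.0454), a call lost in 10 of 12 fits that left out 1 library (all but alpha Pdx1 1 and beta 1), with plain empirical Bayes (limma adjusted p = 0.0533) and with Rn18s-rs5 as a covariate (0.31, limma adjusted p = 0.848). Its means ran from beta (8.13 ± 0.68, SD) through alpha Pdx1 DT (7.96 ± 1.79), alpha Pdx1 (6.72 ± 0.35) and alpha (5.10 ± 0.69) to alpha DT (4.44 ± 0.87), and no pair of neighbours in this order passed.

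The 2 groups with Pdx1 differed in 0 of 6 receptors in limma (4.83% of all genes were higher in alpha Pdx1 DT and 4.39% lower), with 2 of 6 at an unadjusted p under 0.05 and 0 of 6 by the exact permutation test. Ffar1 was 1.24 ± 0.57 higher in alpha Pdx1 DT (limma adjusted p = 0.154), and 1.93 higher without alpha Pdx1 DT 5 (limma adjusted p = 0.00354). That library was set apart by its Pdx1 level, so the value without it is no new test. Against alpha DT, Ffar1 rose by 3.52 ± 0.60 in alpha Pdx1 DT (limma adjusted p = 0.00199) and by 2.28 ± 0.63 in alpha Pdx1 (limma adjusted p = 0.0127). The first of these calls was lost when the 2 groups were fitted alone (limma adjusted p = 0.146). Ffar2 rose in both comparisons as well, so 2 of 6 receptors were higher and 0 lower in each. Among all genes, 1.78% were higher and 0.319% lower in alpha Pdx1 DT than in alpha DT, and 9.82% were higher and 7.19% lower in alpha Pdx1 than in alpha DT.

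**Figure D2:**
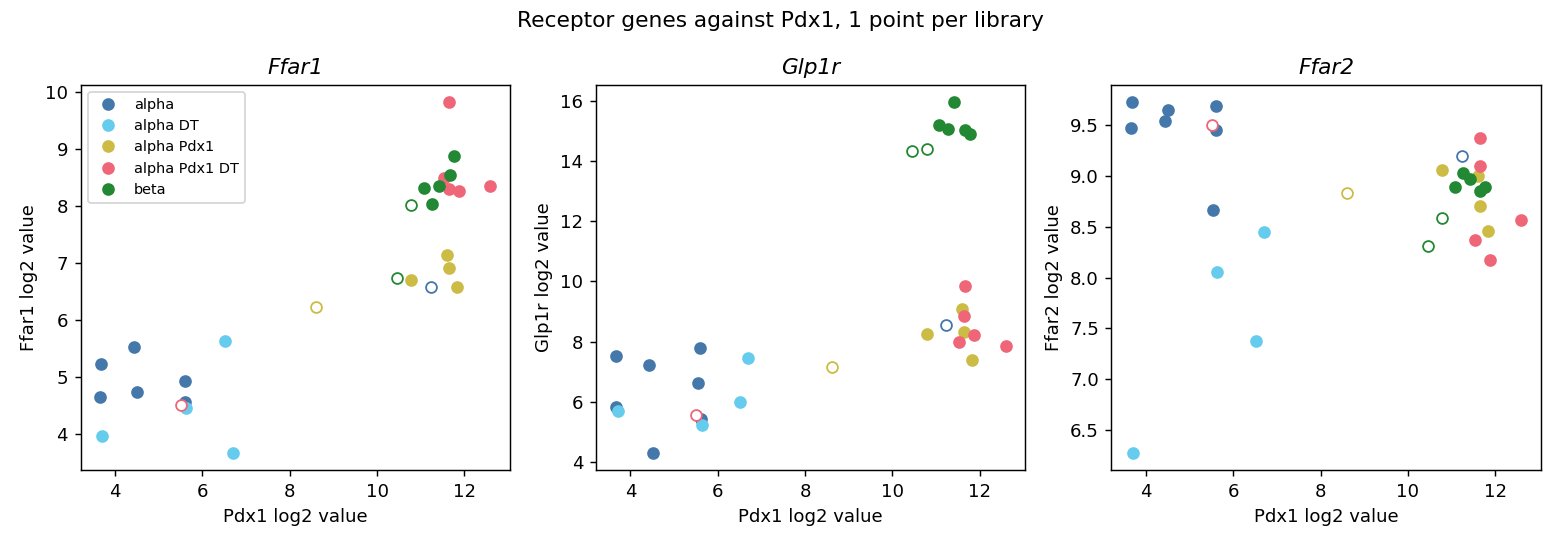
Log2 values of Ffar1, Glp1r and Ffar2 (y axes) against the log2 value of Pdx1 in the same library (x axis), with 1 point per library, colours for the 5 groups and open circles for the 5 libraries that stood apart from their labels. In Ffar1, the open circle of alpha 8 (Pdx1 11.23, Ffar1 6.58) lies toward the Pdx1 groups and that of alpha Pdx1 DT 5 (5.51 and 4.51) among the alpha libraries, while the beta libraries separated from all others in Glp1r at like Pdx1 values.

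Ffar1 followed Pdx1 from library to library. Pearson's r was 0.88 over all 30 libraries and 0.86 over the 23 outside beta. For Glp1r the values were 0.63 and 0.76, and for Gipr 0.68 and 0.61. These are descriptions, since the libraries form groups that differ in Pdx1 by construction. No r was taken within a group. Part of the beta-cell markers rose in the Pdx1 groups too. Against alpha, 4 of 9 rose in alpha Pdx1 (2.36% of all genes) and 5 of 9 in alpha Pdx1 DT (4.06%). Against alpha DT, 6 of 9 rose in alpha Pdx1 (9.82%). Mafa, Nkx6-1 and Slc2a2 passed in none of these comparisons. They were higher in beta than in alpha by 6.47 ± 0.47, 5.62 ± 0.36 and 8.40 ± 0.47. The summed level of the 9 markers was 18.72 to 20.27 in alpha Pdx1 and 14.03 to 21.21 in alpha Pdx1 DT. It was 13.64 to 20.21 in alpha and 21.38 to 23.02 in beta. The insulin gene Ins1 correlated with Ffar1 at r = 0.87 over the 30 libraries. Whether beta-cells or their RNA in the sorted samples had a part in the Ffar1 values was not tested.

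The neighbour of Ffar1 on the same strand is Ffar3 (GPR41, chr7:30854330-30856178), a receptor of short-chain fatty acids that begins 1211 bases beyond the end of Ffar1. A transcript that spans both genes has been described in mouse beta-cells, and how reads from such a transcript were counted was not given in the sources used here. Ffar3 was higher in beta than in alpha by 1.82 ± 0.54 (limma adjusted p = 0.00873) and lower in alpha DT than in alpha by 2.41 on the log2 scale (limma adjusted p = 0.0331). In alpha DT 1 to 4 it was 1.07 (the lowest value of that library), 4.85, 5.92 and 6.28, against 5.92 to 9.04 in alpha. It exceeded alpha DT by 3.53 ± 0.67 in alpha Pdx1 DT (limma adjusted p = 0.00531) and by 3.39 ± 0.70 in alpha Pdx1 (limma adjusted p = 0.00149). Ffar1 and Ffar3 correlated at r = 0.67 over the 30 libraries.

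The short-chain fatty acid receptor Ffar2 was the only one of the 6 receptors to change in alpha-cells after the toxin (0 of 6 higher and 1 lower, where 1.57% of all genes were higher and 1.70% lower). In alpha DT 1 to 4 it was 7.38, 8.45, 6.28 and 8.05. In alpha 1 to 8 it was 9.72, 8.66, 9.65, 9.69, 9.54, 9.47, 9.45 and 9.19. The highest alpha DT library lay below the lowest alpha library. Ffar2 fell by 1.88 on the log2 scale (SE 0.29, limma adjusted p = 0.00122), and the exact two-sided permutation p was 0.00404, the smallest that these group sizes allow. The call held in all 12 fits that left out 1 library and in all 8 other settings tried, with limma adjusted p up to 0.0273. Alpha DT also differed from alpha in markers of other cells. 4 of the 7 leukocyte and macrophage markers measured rose in alpha DT, and their summed level was 12.10 to 15.96 there and 8.12 to 11.20 in alpha. No marker of that list was at the lowest value in every library of either group, and the part of such cells in the Ffar2 values was not tested.

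Ffar2 in the remaining groups lay between these 2. Alpha Pdx1 had 9.0, 9.06, 8.46, 8.70 and 8.83, alpha Pdx1 DT had 8.17, 8.57, 8.37, 9.10, 9.50 and 9.37, and beta had 8.31, 8.97, 9.03, 8.85, 8.59, 8.89 and 8.89. The order of the means was alpha (9.42 ± 0.35, SD), alpha Pdx1 DT (8.85 ± 0.55), alpha Pdx1 (8.81 ± 0.24), beta (8.79 ± 0.25) and alpha DT (7.54 ± 0.95), and of these neighbours only beta and alpha DT differed (1.25 ± 0.30, limma adjusted p = 0.00164). Ffar2 was 1.31 ± 0.31 higher in alpha Pdx1 DT than in alpha DT (limma adjusted p = 0.021), a call lost without alpha DT 3 (limma adjusted p = 0.128), with array weights, with Rn18s-rs5 as a covariate (limma adjusted p = 0.0581) and with the 2 groups fitted alone (limma adjusted p = 0.389). It was 1.27 ± 0.32 higher in alpha Pdx1 than in alpha DT (limma adjusted p = 0.00687), where the ranges did not overlap. That call was lost with the 2 groups fitted alone (limma adjusted p = 0.0727). Markers of other cells moved in this comparison too, where 7.19% of all genes were lower in alpha Pdx1 and 9.82% higher. 4 of 7 leukocyte and macrophage markers fell (summed level 7.90 to 9.66 in alpha Pdx1), among them Tyrobp (-5.83 ± 1.18), as did 2 of 9 acinar markers (7.50 to 14.84 in alpha Pdx1, 12.09 to 18.08 in alpha DT), 1 of 4 duct markers and 1 of 2 endothelial markers, while 1 of 4 mesenchymal markers rose. In alpha Pdx1 DT against alpha DT none of the 7 leukocyte and macrophage markers passed (summed level 8.29 to 15.74 in alpha Pdx1 DT). Among all genes there, 1.78% were higher and 0.319% lower. Their part in the Ffar2 values was not tested. The difference between beta and alpha was -0.63 ± 0.25 (limma adjusted p = 0.0453). It was lost in 12 of 15 fits that left out 1 library (all but alpha 2, alpha 8 and beta 3) and without the 5 libraries set apart (-0.53, limma adjusted p = 0.164).

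The effect of the toxin on alpha-cells with Pdx1 was set against its effect without Pdx1 by an interaction term. No gene of 16633 passed in limma (0.00%), with 1527 genes and 2 of the 6 receptors, Ffar1 and Ffar2, at an unadjusted p under 0.05. The term was 1.92 ± 0.41 for Ffar2 (unadjusted p = 4.75e-05, limma adjusted p = 0.158) and 1.90 ± 0.81 for Ffar1 (limma adjusted p = 0.489). Without alpha DT 2 the Ffar2 term was 2.22 (limma adjusted p = 0.0489). Both toxin groups share RIP-DTR with the toxin, and the Pdx1 groups share a reporter strain, as above.

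The long-chain fatty acid receptor Ffar4 was lower in beta than in every other group. In beta 1 to 7 it was 7.93, 7.14, 7.71, 7.93, 8.38, 7.67 and 6.97. In alpha it ran from 9.05 through a median of 9.56 to 10.17, and in alpha DT it was 9.79, 9.39, 10.54 and 9.36. Alpha Pdx1 had 9.39, 10.44, 10.31, 10.71 and 10.88, and alpha Pdx1 DT had 9.43, 9.60, 9.56, 9.47, 9.73 and 10.72. No library outside beta was below the highest beta library. Ffar4 was lower in beta by 1.87 (log2 difference -1.87 ± 0.24, limma adjusted p = 2.03e-07) than in alpha, and the differences from alpha DT, alpha Pdx1 and alpha Pdx1 DT were -2.09 ± 0.30, -2.67 ± 0.28 and -2.08 ± 0.26. Against alpha DT, beta was higher in the other 5 receptors and lower in Ffar4 alone (5 of 6 and 1 of 6, where 16.6% and 13.6% of all genes were higher and lower).

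The 4 groups of alpha-cells did not separate in Ffar4. The means were 10.34 ± 0.58 (SD) in alpha Pdx1, 9.77 ± 0.55 in alpha DT, 9.75 ± 0.48 in alpha Pdx1 DT and 9.55 ± 0.38 in alpha, and no pair passed the test. The nearest to a call was alpha Pdx1 against alpha (0.79 ± 0.27, limma adjusted p = 0.0877, exact permutation p = 0.0171), where 4 of 5 libraries lay above every alpha library. It passed without alpha 2 (limma adjusted p = 0.0488) or alpha Pdx1 1 (limma adjusted p = 0.0224). The delta-cell hormone Sst, often set beside Ffar4, correlated with it at r = 0.36 over the 30 libraries and r = -0.15 over the 23 outside beta.

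**Figure D3:**
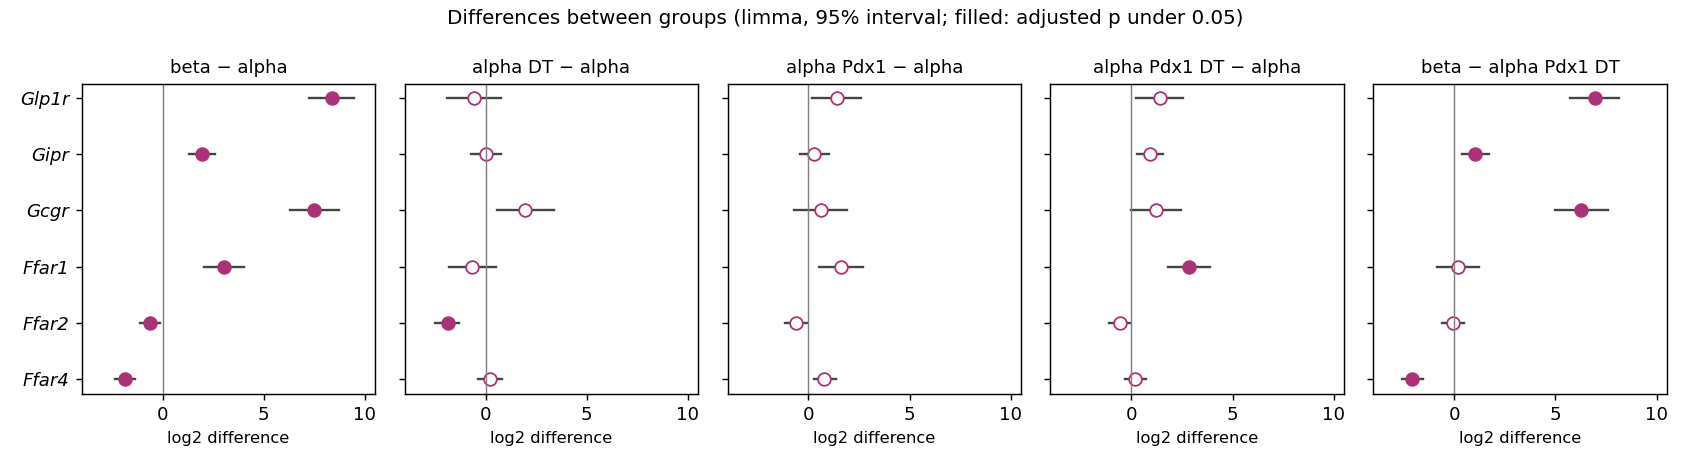
Log2 differences between groups (x axis) for the 6 receptor genes (y axis) in 5 comparisons, with the 95% interval of limma as a line and filled points for adjusted p under 0.05. All 6 points are filled in beta minus alpha, Ffar2 alone in alpha DT minus alpha, Ffar1 alone in alpha Pdx1 DT minus alpha and none in alpha Pdx1 minus alpha. The comparisons with alpha share the same 8 alpha libraries.

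The genes whose values ran most closely with each receptor over the 30 libraries were ranked by Pearson's r. For these genes r was not taken outside beta, so it includes the differences between beta and the other groups. Glp1r ran with Bace2 (r = 0.98), Trpm5 (0.97) and Vil1 (0.97), and Gcgr with Hadh (0.97), Rasgrf1 (0.95) and Kcnj12 (0.95). Ffar4 ran with Large (0.94), St8sia3 (0.92) and Rbfox1 (0.91). Ffar1 ran with Gtf3c4 (0.92), Abhd15 (0.92) and G6pc2 (0.91), and Gipr with Unc5b (0.89), Stim1 (0.88) and Nnat (0.88). Ffar2 had the lowest values, with Gm7192 (0.84), Gm17909 (0.78) and 1700102H20Rik (0.77). Among the receptors themselves, Glp1r and Gcgr correlated at r = 0.92 over all 30 libraries and at 0.45 over the 23 outside beta. For Glp1r and Ffar4 the values were -0.80 and 0.15, so the relation over all libraries was that of beta against the rest.

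Other genes of these pathways were counted from 7 lists written from general knowledge, to be read against the 16.9% of all genes that were higher in beta than in alpha and the 17.6% that were lower. Over the lists together, 33.8% of 65 genes tested were higher and 24.6% lower. Of 4 further class B receptors tested, 2 were lower in beta than in alpha, the calcitonin receptor Calcr (-4.23 ± 0.48) and the VIP receptor Vipr1 (-0.89 ± 0.17), and none was higher. Of 6 genes for ligands, their cleavage and receptor partners, 3 were higher and 2 lower. Pcsk1, the convertase that makes GLP-1 from proglucagon, was higher in beta by 7.44 ± 0.47 and Ramp2, a partner protein of class B receptors, by 2.16 ± 0.58. Gcg itself (-4.27 ± 1.00) and Pcsk2 (-0.97 ± 0.18), the convertase that makes glucagon, were lower. Of 10 further lipid and metabolite receptors, 3 were higher, with the cannabinoid receptor Cnr1 (5.51 ± 0.57) and the succinate receptor Sucnr1 (2.33 ± 0.60) leading, and 2 were lower, Gpr119 (-1.10 ± 0.23) and Lpar6 (-0.95 ± 0.26).

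Downstream of the receptors, counts are again to be read against 16.9% of all genes higher in beta than in alpha and 17.6% lower. Of 19 Gs and cyclic AMP genes, 6 were higher in beta than in alpha and 6 were lower. The regulatory subunit Prkar2b (2.24 ± 0.21) and the adenylyl cyclase Adcy9 (1.11 ± 0.18) led the first, and the cyclases Adcy1 (-3.27 ± 0.36) and Adcy5 (-2.40 ± 0.30) the second. Of 14 Gq and phospholipase C genes, 6 were higher and 2 lower. The IP3 receptor gene Itpr2 was higher by 1.74 ± 0.37, and Itpr1 was lower (-1.93 ± 0.18). Of 5 Gi and Go alpha subunits, 2 were higher and 2 lower, with Gnai3 at 0.95 ± 0.20 and Gnai1 at -2.17 ± 0.19. The receptor kinases Grk5 (1.94 ± 0.20) and Adrbk2 (1.04 ± 0.14) were higher, 2 of 7 in their list, and none was lower. List medians were between -0.94 (class B) and 1.00 (ligands and partners).

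Between the groups of alpha-cells, 3 to 5 of the 65 list genes passed against alpha. In alpha DT against alpha, 2 were higher and 1 lower (3.08% and 1.54%, against 1.57% and 1.70% of all genes). Cnr1 (3.34 ± 0.68) and the catalytic subunit Prkaca (1.54 ± 0.31) rose and Ffar3 fell, as above. In alpha Pdx1 against alpha, 2 were higher and 2 lower (3.08% each, against 2.36% and 1.98%). Sucnr1 rose by 3.07 ± 0.66 and the phospholipase gene Plcb4 by 0.72 ± 0.18, while Itpr3 (-0.73 ± 0.18) and Gnao1 (-0.63 ± 0.17) fell. In alpha Pdx1 DT against alpha, 4 were higher and 1 lower (6.15% and 1.54%, against 4.06% and 3.75%). Cnr1 (2.93 ± 0.60), Plcb3 (1.65 ± 0.34), Prkaca (1.25 ± 0.28) and Prkacb (0.67 ± 0.17) rose and Plcb1 (-0.80 ± 0.24) fell. These shares rest on 1 to 4 genes each and lie near those of all genes, and the 3 comparisons share the alpha libraries.

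**Figure D4:**
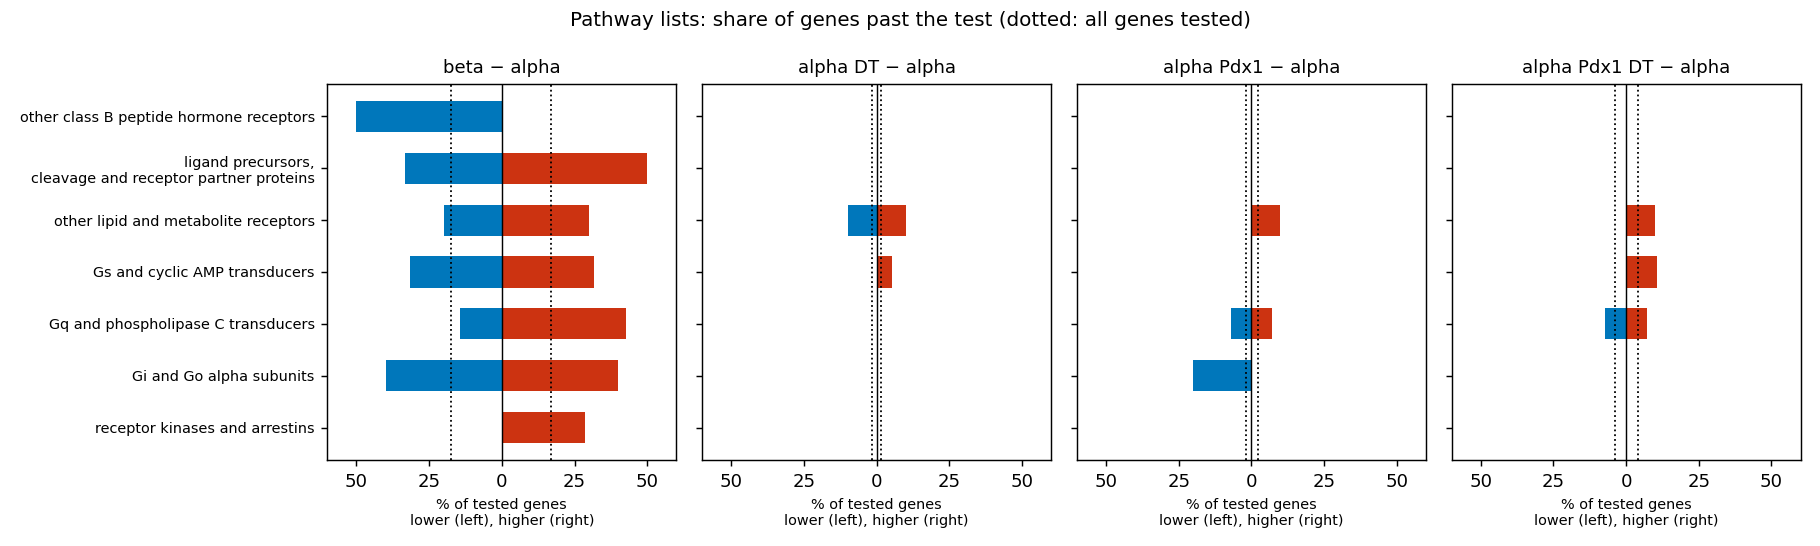
Share of tested genes in each of 7 pathway lists (y axis) that were higher (to the right) or lower (to the left) in 4 comparisons, in % (x axis), with dotted lines at the share among all genes tested. Bars are long in beta minus alpha, where 12 of 19 Gs and cyclic AMP genes passed, and short or missing in the 3 comparisons of alpha-cell groups.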

How the data were processed

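RNA of sorted islet cells was extracted with RNeasy Micro and reverse transcribed with QuantiTect, per the labels' protocols. The submitters' processing notes name GSNAP for alignment and the mouse build GRCm38. Not given in the sources used here: its version, the gene annotation, how reads were counted, and the normalization. The table that the authors deposited, 17775 genes by 30 libraries, was taken to hold log2 values after quantile normalization, because its columns shared quartiles and highest value. Such scaling keeps the rank of a gene in a library and not the amount, and read depth is unknown. All columns of the table were mapped to samples. The count test planned for raw counts was not used, since the file held log2 values.

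The filter on low values asked for 5 or more in 4 or more libraries (16633 genes kept, 1142 removed). limma 3.58.1 in R 4.3.3 fitted 1 mean per group to all libraries, with trend and robust settings of its empirical Bayes step. Two-sided p-values were adjusted (Benjamini-Hochberg) over all genes tested, within each of 10 pairwise comparisons and 1 interaction, with a threshold of 0.05. Exact two-sided permutation tests over libraries were run for each receptor and pair of groups. The fit was tested on simulated data. Python 3.11.15, pandas 2.3.3, scipy 1.17.1 and matplotlib 3.10.9 made tables and figures.

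The receptor genes, lists and tests were chosen with earlier results of these data known. Named genes are the 6 receptors, up to 2 risers and 2 fallers per list with the largest differences among those past the threshold, the 3 genes of highest Pearson correlation with each receptor, and Pdx1, Gcg and Rn18s-rs5. Ffar3, Sst, Ins1 and the other cell type markers named were added after their values were seen. Lists in which no gene passed are given without names. Alternatives were no filter, a stricter filter (7 or more), an added linear value of 32, plain empirical Bayes, array weights, Rn18s-rs5 as a covariate, fits of the compared groups alone, and leaving out libraries.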

Additional observations from a re-analysis of the deposited data

Results flagged for a closer look

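In each group of 4 to 10 libraries, the distance of the highest or lowest library to its nearest neighbour was set against the range of the group. Of 30 sets of 1 receptor and 1 group, 4 held a library that stood apart by Dixon's 95% criterion, where chance alone gives about 5% of sets. Ffar1 in alpha Pdx1 DT 5 was 4.51, with the next library at 8.26. Ffar4 in alpha Pdx1 DT 6 was 10.72, with the next at 9.73. In that library 1437 genes were at its lowest value of 2.35, the highest such value among all libraries. In beta 1, Ffar1 was 6.75 (next 8.03) and Gipr was 9.93 (next 10.45). Alpha Pdx1 DT 5 and beta 1 are among the 5 libraries set apart by Pdx1 or Gcg.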

How the results depend on the processing

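The number of receptor genes past the threshold kept within 1.5 times its value under every setting tried in beta against each of the other 4 groups and in alpha Pdx1 against alpha DT (lowest to highest without 1 library: 5 to 6 for beta against alpha, 6 to 6 against alpha DT, 4 to 5 against alpha Pdx1, 3 to 4 against alpha Pdx1 DT, and 2 to 3). Alpha DT against alpha gave 1, and 1 to 2 without 1 library. Alpha Pdx1 against alpha gave 0, but 4 with array weights, 1 with the groups fitted alone, 2 without the 5 libraries set apart, and 0 to 1 without 1 library. Alpha Pdx1 DT against alpha gave 1, but 4 with array weights, 0 with Rn18s-rs5 as a covariate, 0 with the groups fitted alone, 3 without the 5 libraries, and 1 to 3 without 1 library. Alpha Pdx1 DT against alpha Pdx1 gave 0, but 3 with array weights, 1 without the 5 libraries, and 0 to 1 without 1 library. Alpha Pdx1 DT against alpha DT gave 2, but 1 with array weights, 1 with Rn18s-rs5, 0 with the groups fitted alone, and 1 to 3 without 1 library. The interaction gave 0, and 0 to 1 without 1 library.

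Counts over all genes moved more. Across the settings other than leaving out 1 library they ran from 4991 to 9375 in beta against alpha, 66 to 543 in alpha DT against alpha, 114 to 3110 in alpha Pdx1 against alpha and 0 to 3519 in alpha Pdx1 DT against alpha. They ran from 0 to 3769 in alpha Pdx1 DT against alpha Pdx1, 0 to 953 against alpha DT, 333 to 2866 in alpha Pdx1 against alpha DT, 1907 to 9323 in beta against alpha Pdx1 and 3877 to 6881 in beta against alpha Pdx1 DT. Leaving out 1 library gave 306 to 1078 in alpha DT against alpha, 301 to 985 in alpha Pdx1 against alpha, 307 to 3487 in alpha Pdx1 DT against alpha, 563 to 2558 against alpha Pdx1, 138 to 930 against alpha DT, and 0 to 3 in the interaction. The shares of all genes given beside the receptors move with these counts. The cause was not tested.

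18 single differences changed sign under a setting, and none was past the threshold there. With array weights, Glp1r was 0.32 in alpha DT against alpha, -0.0008 in alpha Pdx1 DT against alpha Pdx1 and -0.32 in the interaction, Gipr was -0.01 in alpha Pdx1 against alpha DT, and Ffar2 was -0.20 in alpha Pdx1 DT against alpha Pdx1, 0.07 in beta against alpha Pdx1 and 0.28 in beta against alpha Pdx1 DT. With Rn18s-rs5, alpha Pdx1 DT against alpha Pdx1 gave -0.82 for Glp1r, -0.18 for Gcgr, -0.47 for Ffar1 and -0.47 for Ffar2. Ffar4 was 0.11 in alpha Pdx1 DT against alpha DT, Ffar2 was 0.12 in beta against alpha Pdx1 DT and Glp1r was -0.08 in the interaction. Without the 5 libraries, Ffar2 was -0.09 in alpha Pdx1 DT against alpha Pdx1, 0.12 in beta against alpha Pdx1 and 0.21 in beta against alpha Pdx1 DT, and Ffar1 was -0.22 in the last. Leaving out 1 library changed the sign of 9 of 66 differences, 0 of them called. Alpha DT against alpha ran from -0.35 to 0.24 for Gipr and -0.04 to 0.36 for Ffar4. Alpha Pdx1 DT against alpha Pdx1 ran from -0.35 to 0.51 for Glp1r and -0.09 to 0.17 for Ffar2, and against alpha DT from -1.25 to 0.07 for Gcgr and -0.21 to 0.24 for Ffar4. Beta against alpha Pdx1 ran from -0.11 to 0.06 for Ffar2, and beta against alpha Pdx1 DT from -0.51 to 0.55 for Ffar1 and -0.19 to 0.07 for Ffar2.

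No paired analysis was made. The 5 groups came from mice of different genotypes, and the labels give the libraries no replicate numbers. Read depth is unknown, and no counting error is given beside low values such as those of Gcgr outside beta.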
